A study of Mus musculus with 12 samples.

Results

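Messenger RNA of 10 genes of the glucocorticoid response was followed in the brains of 12 mice aged 6 weeks. The genes were taken by name from a deposited table of 27131 genes: the receptor genes Nr3c1 and Nr3c2, and the steroid- and stress-induced genes Fkbp5, Sgk1, Tsc22d3, Zbtb16, Sult1a1, Pdk4, Cdkn1a and Ddit4. All 10 were present and all 10 passed the filter on low values. The sample titles name the groups Old and New, which are independent Plat-/- strains on the C57BL/6J background, and WT, which are C57BL/6J mice, with 4 mice in each. The protease that Plat encodes, tissue-type plasminogen activator, turns plasminogen into plasmin. What each allele removed from the gene is not stated in the labels. The labels name no hormone or drug treatment in any group. All mice were killed by CO2 inhalation. The WT mice came from a vendor and the Plat-/- mice were kept in a specific pathogen free colony, so the origin of the animals cannot be told apart from genotype. The tissue label reads cerebral cortex, whereas the dissection took away only the olfactory bulb and the cerebellum. The choroid plexus transcript Ttr (154 to 262 FPKM) and the hypothalamic neuropeptide transcript Avp (0.86 to 7.29 FPKM) were present in every library.

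Glucocorticoids, mainly corticosterone in mice, are released by the adrenal cortex under the control of the hypothalamus and pituitary, in a daily rhythm and during stress. In brain they bind the glucocorticoid receptor and the mineralocorticoid receptor, which without hormone sit largely in the cytoplasm in a complex with Hsp90 and its co-chaperones, move to the nucleus when the steroid binds, and act on DNA at glucocorticoid response elements. Among the genes they induce, Fkbp5 encodes a co-chaperone that lowers the affinity of the receptor for its hormone and so closes a feedback loop.

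The glucocorticoid response element is a palindrome, AGAACA and TGTTCT with any 3 letters between them, and a match was looked for on both strands of the 300-base windows (250 bases before to 50 after each start) that RefSeq annotation on GRCm38.p6 gives. Windows were at hand for 8 of the 10 genes, 16 in all. The full palindrome was in 3 of 32851 mouse windows (0.00913%), and 1 of these lay at an Sgk1 start, at positions -189 to -175. The looser form, GNACA and TGTNC with any 3 letters between them, which overlaps it, was in 156 windows (0.475%), and among the 16 it was in the same Sgk1 window only. The single arm TGTTCT was in 6233 windows (19%) and in 5 of the 16: 3 windows of Sgk1, 1 of Sult1a1 and 1 of Tsc22d3. The Sgk1 window with the palindrome and the Tsc22d3 window with a single arm at -185 to -180 are shown because each gene is in a pair that passed the test of covariation between mice described below. For Tsc22d3 that pair passed by Pearson's coefficient only, and not by Spearman's. Capitals mark the matches, and the letters run 5′ to 3′ on the gene's strand. A match is a description of the letters and no evidence that a receptor binds there.

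Sgk1, chr10:21993640-21993939, plus strand: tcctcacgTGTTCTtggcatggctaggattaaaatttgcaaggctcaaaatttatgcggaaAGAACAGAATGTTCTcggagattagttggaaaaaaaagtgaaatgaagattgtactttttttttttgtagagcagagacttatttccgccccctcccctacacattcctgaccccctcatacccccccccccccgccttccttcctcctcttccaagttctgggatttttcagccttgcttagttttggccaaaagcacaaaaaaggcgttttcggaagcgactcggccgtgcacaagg

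Tsc22d3, chrX:140600473-140600772, minus strand: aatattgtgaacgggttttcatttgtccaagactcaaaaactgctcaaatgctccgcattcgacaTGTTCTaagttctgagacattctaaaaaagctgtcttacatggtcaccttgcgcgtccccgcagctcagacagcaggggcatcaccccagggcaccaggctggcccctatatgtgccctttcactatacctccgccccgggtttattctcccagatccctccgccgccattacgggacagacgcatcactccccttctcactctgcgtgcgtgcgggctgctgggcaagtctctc

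Values are FPKM, fragments scaled to transcript length and to the mapped fragments of the library, so levels can be compared between genes, while read depth is unknown. Plat itself was at 1.68, 1.87, 1.39 and 2.09 FPKM in Old libraries 1 to 4, at 2.82, 2.77, 3.15 and 2.77 FPKM in New and at 9.83, 8.01, 8.94 and 6.93 FPKM in WT, so every library of either strain lay below every WT library. Old 1 and WT 4 stood apart from the other 10 libraries: their Spearman correlation across genes was 0.964 with each other and 0.921 to 0.939 with the others, which correlated at 0.959 to 0.972 among themselves. Transcripts of low GC content (under 40%) lay at medians of -0.55 log2 units from the 12-library mean in Old 1 and -0.71 in WT 4. Those of high GC content (60% or more) lay at medians of 0.70 in Old 1 and 0.63 in WT 4. The Y-linked transcript Ddx3y was at 6.51 to 15.4 FPKM in Old 1, Old 4, New 1 and WT 4 and at no more than 0.0242 FPKM in the other 8. The labels do not give the sex of the mice.

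Over all 12 libraries the mean level was highest for Tsc22d3 (23.9 FPKM), Sgk1 (21.9 FPKM) and Nr3c1 (18.9 FPKM). Zbtb16 (12.5 FPKM), Nr3c2 (12.4 FPKM) and Ddit4 (11.2 FPKM) followed, then Fkbp5 (7.17 FPKM), Cdkn1a (5.07 FPKM) and Sult1a1 (4.72 FPKM), and Pdk4 was lowest (2.36 FPKM). The ranges of the neighbours in this order overlapped within each of the 3 groups, except that Pdk4 lay below Sult1a1 in Old (at most 2.53 FPKM, with Sult1a1 at least 2.71 FPKM) and in New (at most 2.89 FPKM, with Sult1a1 at least 4.17 FPKM). This is the order of transcript levels in whole tissue. In such bulk samples fewer cells of a type and less RNA per cell cannot be told apart.

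**Figure D1:**
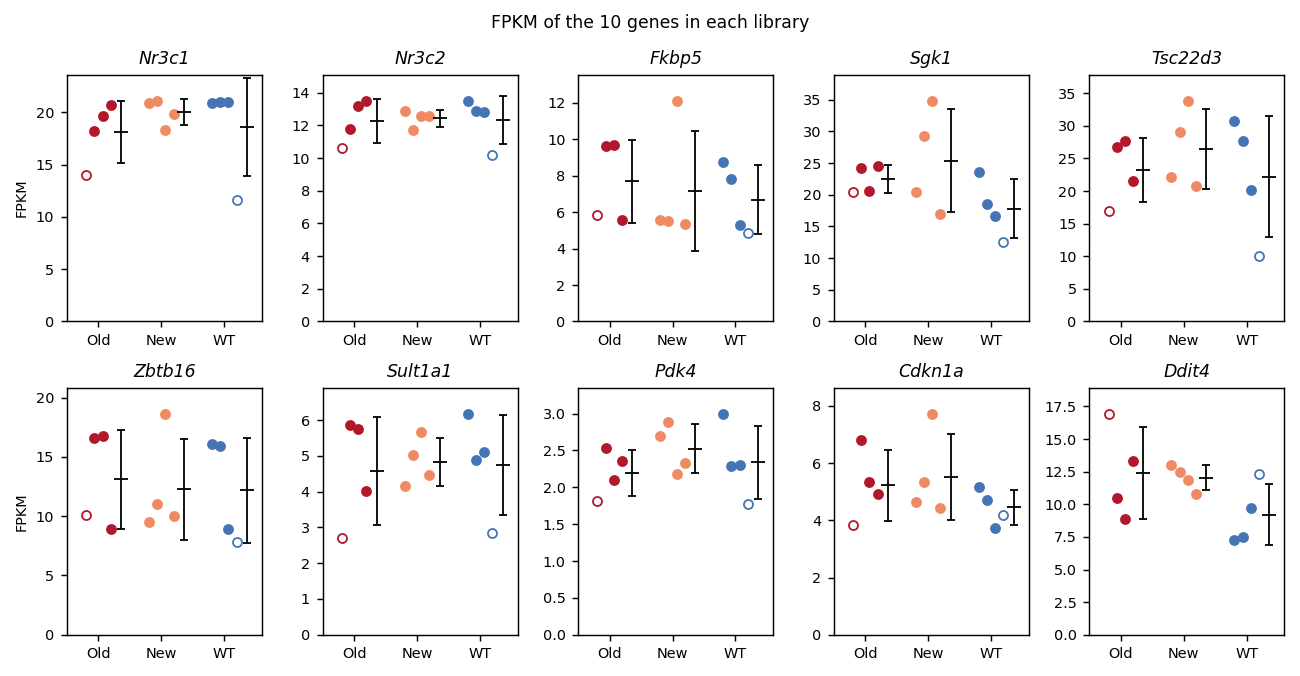
FPKM of each of the 10 genes in every library (points), with the mean and SD of 4 mice (black bars) for Old, New and WT; open points are Old 1 and WT 4. The groups overlap for every gene, and in Fkbp5 and Zbtb16 each group holds libraries of a high set and of a low set.

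The first comparison set each Plat-/- strain against WT. None of the 10 genes passed the test in either strain. In Old against WT, 0 of 10 passed (limma, Benjamini-Hochberg adjusted p under 0.05), where 0.0247% of the 16203 genes tested passed (4 genes), and 0 of 10 had an unadjusted p under 0.05, where 270 genes did (1.67%). In New against WT, 0 of 10 passed, where 0.00617% passed (1 gene), and 0 of 10 had an unadjusted p under 0.05, where 360 genes did (2.22%). In Old against New, 0 of 10 passed, where 0.0123% passed (2 genes), and 0 of 10 had an unadjusted p under 0.05, where 184 genes did (1.14%). For no gene of the 10 did Old and WT libraries fail to overlap (1.1% of all genes did), nor New and WT libraries (2.6%), nor Old and New libraries (1.79% in either direction and 0.728% with Old higher). Both comparisons with WT share the 4 WT libraries.

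The median log2 difference of the 10 genes was 0.14 in Old against WT, beside 0.03 over all genes tested, and 0.13 in New against WT, beside 0.06. A positive difference was found for 6 of 10 genes in Old, against 65.3% of all genes, and for 10 of 10 in New, against 65.5%. For the mean of both strains 10 of 10 were positive, against 67.2%. These counts rest in part on 2 libraries: without Old 1 and WT 4, a choice of count made after the values were seen, 5 of 10 were positive in Old, against 49.1% of all genes, and 5 of 10 in New, against 47.6%. The median of the 10 was then 0.0046 in Old, beside -0.0012 over all genes, and -0.03 in New, beside -0.0062. Nr3c1, Nr3c2, Fkbp5, Zbtb16 and Sult1a1 were the 5 that turned negative in New. Nr3c2, Fkbp5 and Zbtb16 in New turned negative under both other scalings of the libraries (median ratio and quantile).

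**Figure D2:**
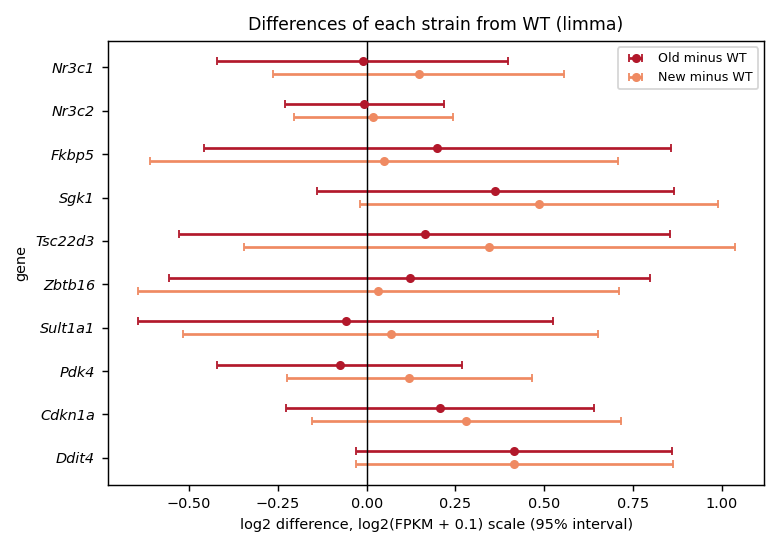
Log2 differences of Old minus WT and New minus WT for the 10 genes, on the log2(FPKM + 0.1) scale, with 95% intervals from limma. Every interval includes 0, and those of Fkbp5, Tsc22d3 and Zbtb16 are the widest of the 10.

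Of the receptors, Nr3c1 encodes the glucocorticoid receptor (chromosome 18, 39410545 to 39519421, minus strand, mm10). It was at 14, 18.2, 19.7 and 20.7 FPKM in Old libraries 1 to 4, at 20.9, 21.1, 18.3 and 19.9 FPKM in New and at 20.9, 21, 21 and 11.6 FPKM in WT. Both low values belong to the libraries that stand apart, and the other 10 lay between 18.2 and 21.1 FPKM. The GC content of the Nr3c1 transcript is 42.2%. Old minus WT was -0.01 (95% interval -0.42 to 0.40) and New minus WT was 0.15 (-0.26 to 0.56) in log2 units. Without Old 1 and WT 4 the difference was -0.10 for Old and -0.06 for New.

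Nr3c2 encodes the mineralocorticoid receptor, which binds corticosterone more tightly than the glucocorticoid receptor does (chromosome 8, 76899442 to 77245012, plus strand). Its values were 10.6, 11.8, 13.2 and 13.5 FPKM in Old, 12.9, 11.7, 12.6 and 12.6 FPKM in New and 13.5, 12.9, 12.8 and 10.2 FPKM in WT. This was the steadiest of the 10 genes, with a highest value 1.32 times the lowest, and its lowest values were again in Old 1 and WT 4. In log2 units, Old differed from WT by -0.01 (-0.23 to 0.22) and New by 0.02 (-0.21 to 0.24), which on a linear scale is a ratio of 0.852 to 1.16 for Old and of 0.867 to 1.18 for New. Over the 10 other libraries the spread of Nr3c2 was at percentile 30.3 of the genes tested and that of Nr3c1 at percentile 34.9.

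Fkbp5 (chromosome 17, 28399094 to 28517527, minus strand), the co-chaperone named above, behaved otherwise. It was at 5.87, 9.63, 9.69 and 5.59 FPKM in Old, at 5.59, 5.52, 12.1 and 5.37 FPKM in New and at 8.74, 7.80, 5.30 and 4.85 FPKM in WT. Old 2, Old 3, New 3, WT 1 and WT 2 were high, from 7.80 to 12.1 FPKM, and the other 7 libraries were low, from 4.85 to 5.87 FPKM. Each group therefore held mice of both kinds. The log2 difference was 0.20 (-0.46 to 0.86) for Old and 0.05 (-0.61 to 0.71) for New, and leaving out 1 library at a time moved the New difference between -0.23 and 0.19.

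Zbtb16 (chromosome 9, 48654297 to 48836222, minus strand) encodes PLZF, a zinc-finger transcription factor. It was at 10.1, 16.6, 16.8 and 8.92 FPKM in Old, at 9.55, 11.0, 18.6 and 9.99 FPKM in New and at 16.1, 15.9, 8.91 and 7.81 FPKM in WT. The 5 libraries high in Fkbp5 were the 5 high in Zbtb16, at 15.9 to 18.6 FPKM, with the other 7 at 7.81 to 11.0 FPKM. Old minus WT was 0.12 (-0.56 to 0.80) and New minus WT was 0.03 (-0.65 to 0.71) in log2 units. Over the 10 libraries without Old 1 and WT 4, the widest gap between neighbouring libraries took up 49.9% of the log2 range for Zbtb16 and 40.1% for Fkbp5, with 5 libraries on either side in both genes. Over all 12 libraries it took up 42.4% for Zbtb16 and 30.9% for Fkbp5, with the same 5 libraries above it. Without Old 1 and WT 4 the spread of Zbtb16 was at percentile 95.2 of the genes tested and that of Fkbp5 at 95.3, followed by Sgk1 (91.8), Cdkn1a (89.2) and Tsc22d3 (89.1).

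**Figure D3:**
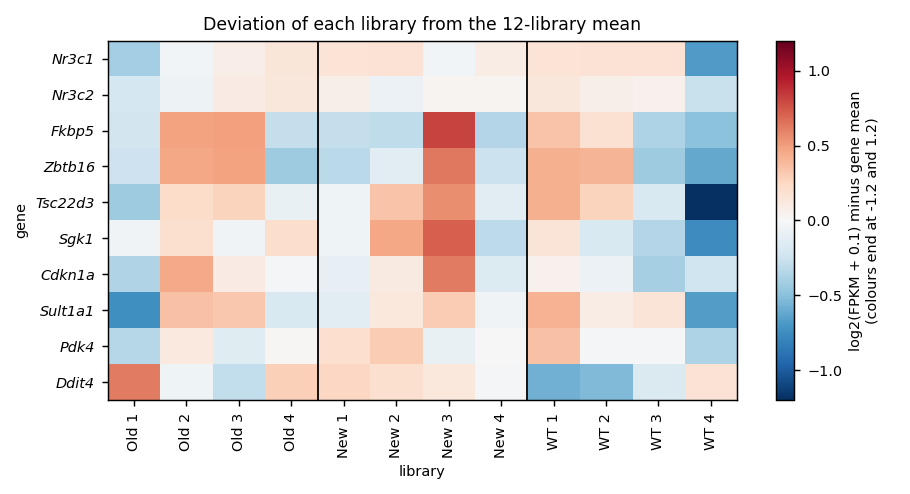
Deviation of each library from the 12-library mean of each gene, in log2 units; red is higher, blue is lower, and the black lines part Old, New and WT. Fkbp5 and Zbtb16 are red in Old 2, Old 3, New 3, WT 1 and WT 2, and Nr3c1 and Nr3c2 are near 0 outside Old 1 and WT 4.

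Tsc22d3 (chromosome X, 140539528 to 140600659, minus strand) encodes GILZ, the glucocorticoid-induced leucine zipper, which restrains inflammatory signalling. Its values were 17.0, 26.7, 27.6 and 21.6 FPKM in Old, 22.1, 29.1, 33.8 and 20.8 FPKM in New and 30.8, 27.7, 20.2 and 9.98 FPKM in WT. The 5 libraries high in Fkbp5 were again among the highest, joined by New 2, and WT 4 was the lowest. In log2 units, Old differed from WT by 0.16 (-0.53 to 0.85) and New by 0.35 (-0.35 to 1.04). Without Old 1 and WT 4 it was -0.04 for Old and 0.0042 for New, so the direction in Old changed when those libraries were left out.

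Sgk1 (chromosome 10, 21882184 to 21999903, plus strand) encodes serum- and glucocorticoid-regulated kinase, which acts on ion channels and transporters. It was at 20.5, 24.2, 20.6 and 24.5 FPKM in Old, at 20.4, 29.2, 34.8 and 17.0 FPKM in New and at 23.6, 18.6, 16.6 and 12.5 FPKM in WT. New 3 and New 2 were highest and WT 4 lowest, and WT 1 lay within the range of both strains. The mean was 22.5 ± 2.19 FPKM in Old, 25.4 ± 8.15 FPKM in New and 17.8 ± 4.62 FPKM in WT (SD, n = 4 each). The log2 difference was 0.36 (-0.14 to 0.87) for Old (limma, unadjusted p = 0.142, adjusted p = 1) and 0.49 (-0.02 to 0.99) for New (unadjusted p = 0.0572, adjusted p = 0.965). It stayed positive under every alternative run, from 0.21 to 0.51 in Old and from 0.27 to 0.66 in New, and passed under none.

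Ddit4 (chromosome 10, 59949669 to 59951834, minus strand) encodes REDD1, an inhibitor of the growth-promoting kinase complex mTORC1 that is induced by glucocorticoids, hypoxia and energy shortage. It was at 16.9, 10.5, 8.86 and 13.3 FPKM in Old, at 13.0, 12.5, 11.9 and 10.8 FPKM in New and at 7.27, 7.53, 9.69 and 12.3 FPKM in WT. WT 1 and WT 2 were the lowest of the 12, Old 1 was the highest, and WT 4 lay among the New libraries. The GC content of the Ddit4 transcript is 57.9%, the highest of the 10 genes, and Old 1 and WT 4 are the libraries that stand apart. The log2 difference was 0.42 (-0.03 to 0.86) for Old and 0.42 (-0.03 to 0.86) for New, with an exact two-sided permutation p of 0.171 for Old and 0.0857 for New, where 4 against 4 cannot go below 0.0286. For the mean of both strains against WT it was 0.42 (0.03 to 0.80), with an unadjusted p of 0.0373 and an adjusted p of 1 (limma); 0 of 10 genes passed in that comparison, where 0.0123% did (2 genes), and an unadjusted p under 0.05 was found for Ddit4 alone of the 10 and for 2.22% of all genes. Without Old 1 and WT 4 all New values lay above those of WT 1 to WT 3, by 0.57 (exact two-sided permutation p = 0.0571, the smallest that 4 against 3 can give), and WT 4, at 12.3 FPKM, is the WT library left out there that had overlapped. In those libraries the groups did not overlap, in either direction, for 1 of 10 genes in New (Ddit4) and 1 of 10 in Old (Nr3c1, lower), against 10.8% of all genes in New and 10.1% in Old.

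Cdkn1a (chromosome 17, 29090976 to 29100727, plus strand) encodes the cell-cycle inhibitor p21, which both p53 and glucocorticoids induce. Its values were 3.83, 6.82, 5.33 and 4.92 FPKM in Old, 4.64, 5.34, 7.71 and 4.42 FPKM in New and 5.15, 4.73, 3.74 and 4.19 FPKM in WT. New 3 and Old 2, both of the 5 libraries high in Fkbp5, were highest, and the groups overlapped. Old minus WT was 0.21 (-0.23 to 0.64) and New minus WT was 0.28 (-0.15 to 0.72) in log2 units, positive under every alternative run and past the threshold under none.

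Sult1a1 (chromosome 7, 126672865 to 126676432, minus strand) encodes a cytosolic sulfotransferase of phenols. It was at 2.71, 5.86, 5.75 and 4.01 FPKM in Old, at 4.17, 5.01, 5.67 and 4.45 FPKM in New and at 6.16, 4.87, 5.11 and 2.83 FPKM in WT. Old 1 and WT 4 were again the lowest libraries. In log2 units, Old differed from WT by -0.06 (-0.64 to 0.52) and New by 0.07 (-0.52 to 0.65). Sgf29 overlaps Sult1a1 on the other strand, and the library kit does not mark strand, so reads in the shared stretch cannot be told apart. Annotated non-coding transcripts likewise overlap Nr3c2, Fkbp5 and Cdkn1a.

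Pdk4 (chromosome 6, 5483351 to 5496309, minus strand) encodes a kinase that shuts off pyruvate dehydrogenase and so spares glucose. Its values were 1.81, 2.53, 2.1 and 2.35 FPKM in Old, 2.70, 2.89, 2.18 and 2.33 FPKM in New and 2.99, 2.29, 2.30 and 1.78 FPKM in WT. Old 1 and WT 4 were lowest here too, followed by Old 3 and New 3, which were high in Fkbp5, and the groups overlapped. The log2 difference was -0.08 (-0.42 to 0.27) for Old and 0.12 (-0.23 to 0.47) for New.

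Between the Plat-/- strains, none of the 10 genes passed the test. The log2 difference of Old minus New was 0.15 (-0.51 to 0.81) for Fkbp5, 0.09 (-0.59 to 0.77) for Zbtb16, -0.18 (-0.87 to 0.51) for Tsc22d3, -0.12 (-0.63 to 0.38) for Sgk1 and -0.0008 (-0.45 to 0.45) for Ddit4. The median of the 10 was -0.10, beside -0.03 over all genes tested, and 2 of 10 were positive, against 42.2% of all genes. Without Old 1 and WT 4 the median was 0.0005, beside 0.0053 over all genes, and 5 of 10 were positive, against 52.7%.

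The second comparison was between mice, irrespective of group. Pairs were compared on log2(FPKM + 0.1) over the 10 libraries other than Old 1 and WT 4, with p-values from 100000 permutations adjusted over all 45 pairs. By Pearson's coefficient 4 pairs passed, all positive, and by Spearman's 2 passed. Because the libraries form separate high and low sets in Fkbp5 and Zbtb16, no coefficient is given for the 17 pairs with either gene. By Pearson's coefficient 3 of these passed: Fkbp5 with Zbtb16, Fkbp5 with Cdkn1a, and Zbtb16 with Tsc22d3. Only Fkbp5 with Zbtb16 passed by Spearman's as well. Of the other 28 pairs 1 passed. This was Sgk1 with Cdkn1a, at r = 0.83 (permutation p = 0.00368, adjusted p = 0.0449) and rho = 0.88 (permutation p = 0.00173, adjusted p = 0.0389), and r was 0.56 without New 3 and WT 3.

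Tsc22d3 had positive coefficients with Sgk1 and Cdkn1a that did not pass the adjustment. Its r was 0.72 with Sgk1 (permutation p = 0.0187, adjusted p = 0.0703; rho = 0.66, permutation p = 0.0442, adjusted p = 0.181), and it was 0.45 without New 3 and WT 3. With Cdkn1a it was 0.76 (permutation p = 0.00858, adjusted p = 0.054; rho = 0.76, permutation p = 0.0154, adjusted p = 0.116), and 0.60 without New 4 and WT 3. Nr3c1 ran against Cdkn1a at r = -0.82 (permutation p = 0.00791, adjusted p = 0.054; rho = -0.50, permutation p = 0.144, adjusted p = 0.381), but r was -0.21 without New 3 and Old 2, so this relation rests on those libraries. Within 1 group 4 mice are too few for a coefficient. After removal of the group means 13 pairs passed, and over all 12 libraries, with Old 1 and WT 4 low in most of the genes, 20 did.

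The genes whose pattern over the 10 libraries was most like that of Fkbp5, among 14285 genes with a mean of at least 1 FPKM and leaving out the 10 genes themselves, were Pkp2 (r = 0.96), Hif3a (0.96), Ccdc141 (0.96), Apba2 (0.96) and Spsb1 (0.95). These coefficients only rank the genes, and they carry no p because the libraries form separate sets. Hif3a, which encodes a hypoxia-inducible factor subunit and is itself known to be induced by glucocorticoids, was at 0.847, 2.28, 2.19 and 0.637 FPKM in Old, at 0.839, 1.04, 2.92 and 0.809 FPKM in New and at 2.27, 1.82, 0.561 and 0.397 FPKM in WT. The 5 libraries high in Fkbp5 were those above 1.04 FPKM. Pkp2, a desmosomal plakophilin, was at 2.66, 2.88, 2.69 and 2.20 FPKM in Old, at 2.13, 2.05, 3.09 and 1.96 FPKM in New and at 2.98, 2.58, 1.93 and 1.97 FPKM in WT.

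A list of other genes that glucocorticoids are known to induce held 32 genes, of which 29 were tested. None passed in Old or New against WT (limma), and 2 had an unadjusted p under 0.05 in Old and 1 in New. Their median log2 difference was 0.10 in Old, with 24 higher and 5 lower, and 0.10 in New, with 21 higher and 8 lower. Over all genes tested the medians were 0.03 in Old and 0.06 in New, with 65.3% higher in Old and 65.5% in New. These shares were 49.1% and 47.6% without Old 1 and WT 4, and the count of the list without them is not given here. Of the 25 with a mean of at least 1 FPKM, 21 had a positive coefficient with Fkbp5 over the 10 libraries (84%; median 0.59), beside 51.9% of all such genes (median 0.02), again as a description. Mertk, a phagocytic receptor of glia, followed Fkbp5, at 6.76, 11.4, 10.8 and 7.76 FPKM in Old, 8.46, 8.74, 12.2 and 8.95 FPKM in New and 12.2, 11.7, 8.26 and 5.86 FPKM in WT. Dusp1, a phosphatase of MAP kinases that both glucocorticoids and neuronal activity induce, ran the other way: it was at 23.9, 7.80, 6.30 and 18.0 FPKM in Old, at 20.4, 17.2, 6.02 and 16.2 FPKM in New and at 6.25, 7.46, 18.7 and 21.8 FPKM in WT. Its 5 lowest libraries were the 5 high in Fkbp5. Mertk and Dusp1 were chosen after their values were seen.

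Immediate early genes, transcription factors and other genes that neurons switch on within minutes of activity, stood opposite Fkbp5. Of the 15 listed, all at 1 FPKM or more on average, 1 had a positive coefficient with Fkbp5 (6.67%), and the median was -0.87. Their summed level was 549, 199, 163 and 279 FPKM in Old, 358, 365, 141 and 281 FPKM in New and 143, 176, 317 and 441 FPKM in WT. The 5 libraries high in Fkbp5 had the 5 lowest sums, from 141 to 199 FPKM, against 279 to 549 FPKM in the other 7. Fos, a subunit of the AP-1 transcription factor, was at 25.8, 9.04, 7.08 and 20.6 FPKM in Old, at 24.2, 22.8, 5.69 and 19.6 FPKM in New and at 5.37, 6.97, 23.7 and 19.2 FPKM in WT. It too was chosen after its values were seen, and its 5 lowest libraries were the same 5. None of the 15 passed in either strain against WT (limma), and 0 had an unadjusted p under 0.05. Over all 12 libraries 14 were higher and 1 lower in Old, and 11 were higher and 4 lower in New. Of all genes tested, 65.3% were higher in Old and 65.5% in New.

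**Figure D4:**
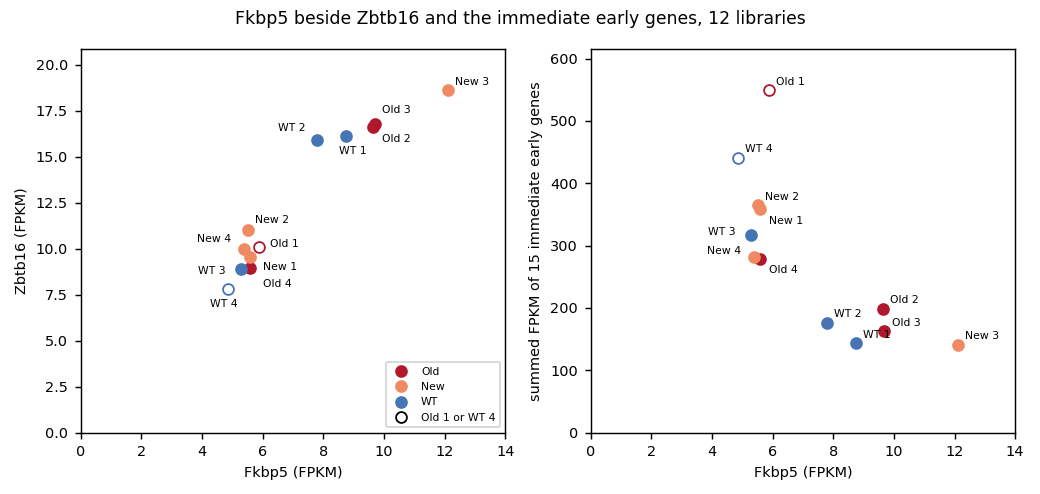
Fkbp5 level (FPKM, x axis) in each library against Zbtb16 (left, FPKM) and against the summed FPKM of 15 immediate early genes (right); colours give Old, New and WT, and open points are Old 1 and WT 4. The 5 libraries at 7.80 FPKM of Fkbp5 or more are the highest in Zbtb16 and the lowest in the immediate early genes, and they come from all 3 groups.

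Other measured properties moved in part with this split. None of the 5 libraries high in Fkbp5 was among the 4 with Ddx3y. Of 16 oligodendrocyte markers, 3 had a positive coefficient with Fkbp5 (18.8%; median -0.50), and of 17 endothelial and mural markers 5 of the 16 ranked did (31.2%; median -0.23). Astrocyte markers were divided, with 7 of 13 positive (53.8%; median 0.17), and so were neuron markers, with 9 of 14 (64.3%; median 0.09), and microglial markers, with 6 of 12 (50%; median -0.01). Choroid plexus markers were divided as well, with 5 of the 9 ranked positive (55.6%, median 0.04), beside 51.9% of all ranked genes. The summed level of the choroid plexus list was 410 and 393 FPKM in Old 2 and Old 3, 322 FPKM in New 3 and 418 and 386 FPKM in WT 1 and WT 2, against 240 to 374 FPKM in the other 7 libraries. Much of that sum is Ttr, at 154 to 262 FPKM. The sample titles of WT 1 and WT 2, both high in Fkbp5, lack the letters tpa, which those of WT 3 and WT 4 hold. Old 2, Old 3 and New 3, also high, have these letters in their titles. The titles do not say what the letters mark in WT. The part of the cell types, of sex or of this title difference in the split was not tested.

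**Figure D5:**
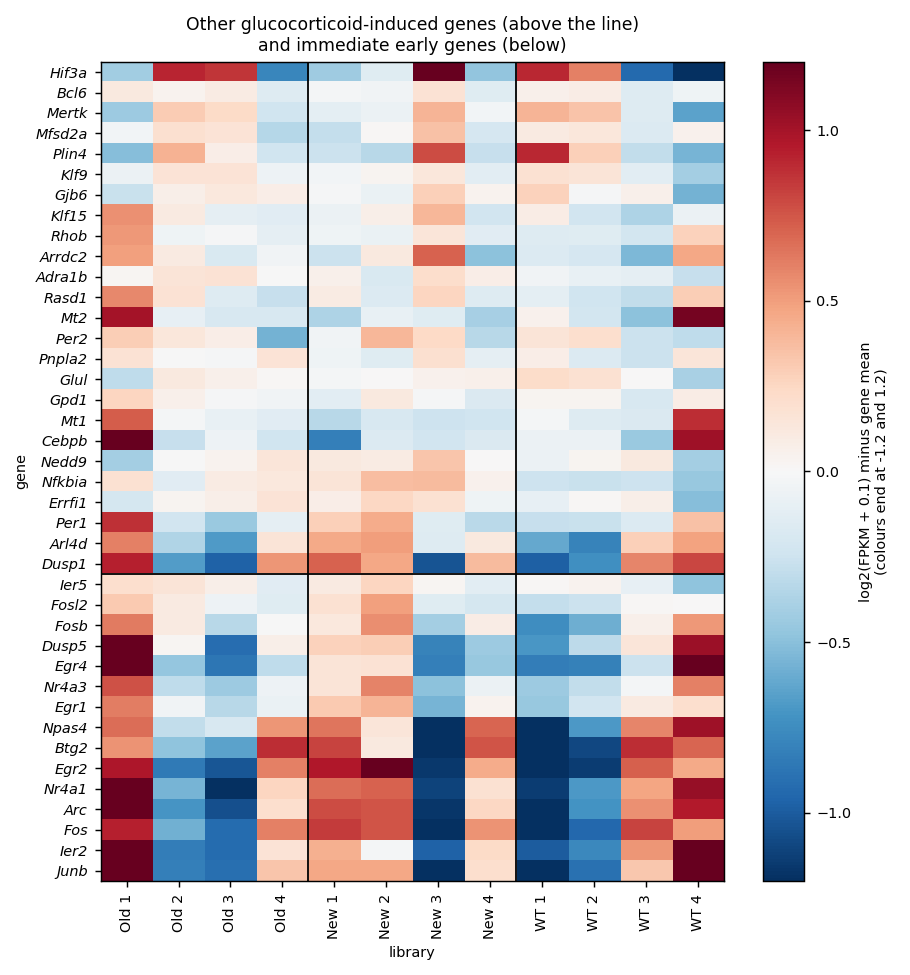
Deviation of each library from the gene's 12-library mean, in log2 units, for 25 other glucocorticoid-induced genes (above the horizontal line) and 15 immediate early genes (below it), each ordered by its coefficient with Fkbp5. Hif3a at the top is red, and Fos, Ier2 and Junb at the bottom are blue, in Old 2, Old 3, New 3, WT 1 and WT 2.

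Of the genes around the receptors (supply, chaperones and co-regulators), none passed in Old or New against WT (limma); an unadjusted p under 0.05 was found for 1 gene in Old, Hsd11b1, and for 1 in New, Dnajb1. The list of glucocorticoid supply and the stress axis (15 tested of 21) had 11 higher and 4 lower in Old and 10 higher and 5 lower in New, with medians of 0.07 and 0.06. These counts include Ugt8a, which is also in the list of oligodendrocyte markers (0.09 in Old and 0.34 in New). Of all genes tested, 65.3% were higher in Old and 65.5% in New. Within the supply list Hsd11b1, whose enzyme regenerates active corticosterone inside cells, was at 1.48, 1.31, 1.29 and 1.40 FPKM in Old, at 0.922, 0.878, 1.33 and 1.18 FPKM in New and at 1.00, 0.820, 0.792 and 1.08 FPKM in WT. Every Old library lay above every WT library, by 0.53 (SE 0.15; limma, adjusted p = 1; exact two-sided permutation p = 0.0286), as 0.796% of all genes did in that direction. New overlapped WT, at 0.19 (SE 0.15; limma, adjusted p = 0.965).

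The receptor chaperones, among them Hsp90 and the immunophilins (17 tested of 17), were split, with 10 higher and 7 lower in Old and 8 higher and 9 lower in New. The co-activators and co-repressors (17 tested of 18) had 7 higher and 10 lower in Old and 12 higher and 5 lower in New. Both lists stand beside 65.3% of all genes higher in Old and 65.5% in New. Hsp90aa1, the inducible cytosolic Hsp90, was at 222, 300, 333 and 330 FPKM in Old, at 325, 323, 294 and 329 FPKM in New and at 319, 327, 351 and 187 FPKM in WT, lowest again in Old 1 and WT 4. It was chosen after its values were seen.

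Nfkbia, which encodes the inhibitor of NF-kappa-B and is another glucocorticoid-induced gene, had the smallest unadjusted p of its list. Its coefficient with Fkbp5 over the 10 libraries other than Old 1 and WT 4 was 0.02, beside a median of 0.59 in that list. Nfkbia thus did not follow Fkbp5 between mice. It was at 8.96, 7.18, 8.44 and 8.60 FPKM in Old, at 8.81, 10.2, 10.3 and 8.15 FPKM in New and at 6.62, 6.52, 6.62 and 5.72 FPKM in WT. All 8 Plat-/- libraries lay above all 4 WT libraries, as 0.796% of all genes did for Old and 1.94% for New. Old minus WT was 0.37 (SE 0.10; limma, adjusted p = 1) and New minus WT was 0.54 (SE 0.10; unadjusted p = 0.000172, adjusted p = 0.695) in log2 units, so neither passed the adjustment over all genes. The exact two-sided permutation p was 0.0286 for each.

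Lists of genes of other stresses that induce Cdkn1a, Ddit4 or Pdk4, and of relatives of the 10 genes, were read the same way, and again none passed in either strain (limma). The medians over all genes tested were 0.03 in Old and 0.06 in New, and 65.3% of these genes were higher in Old and 65.5% in New. Without Old 1 and WT 4 those shares were 49.1% and 47.6%, and counts of the lists without these libraries are not given here. An unadjusted p under 0.05 was found in Old for Perp, Adm and Acaa2 and in New for Chac1 and Fkbp2. Of 14 tested p53 targets 11 were higher and 3 lower in Old and 12 higher and 2 lower in New (medians 0.06 and 0.12). Of 16 tested hypoxia targets 6 were higher and 10 lower in Old and 11 higher and 5 lower in New (medians -0.02 and 0.09). Of 14 tested ATF4 targets of the integrated stress response 13 were higher and 1 lower in Old and 4 higher and 10 lower in New (medians 0.04 and -0.02). Of 20 tested genes of fasting and fat oxidation 15 were higher and 5 lower in Old and 11 higher and 9 lower in New (medians 0.03 and 0.02). Relatives of the 10 genes in the SGK, PDK, SULT1 and FKBP families (19 tested of 22) had 12 higher and 7 lower in Old and 10 higher and 9 lower in New (medians 0.04 and 0.01).

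Among the marker lists, oligodendrocyte genes had the largest median difference of New against WT, 0.21, with 13 of 16 higher, 0 past the adjusted threshold and 5 with an unadjusted p under 0.05, which 2.22% of all genes had. In Old their median was 0.09, with 13 of 16 higher, 0 past the adjusted threshold and 3 with an unadjusted p under 0.05, beside 1.67% of all genes. Their summed level was 1722.8 to 1941.8 FPKM in Old, 1790.6 to 1957.1 FPKM in New and 1616.8 to 1718.9 FPKM in WT. Of all genes tested, 65.3% were higher in Old and 65.5% in New, and without Old 1 and WT 4 these shares were 49.1% and 47.6%. Counts of the marker lists without those libraries are not given here. In the other marker lists no gene passed either. Endothelial and mural markers had 6 higher and 11 lower in Old and 12 higher and 5 lower in New, astrocyte markers 9 and 4 in Old and 11 and 2 in New, and microglial markers 8 and 4 in Old and 10 and 2 in New. Neuron markers had 10 higher and 4 lower in Old and 8 higher and 6 lower in New, and choroid plexus markers 7 and 5 in Old and 6 and 6 in New. Markers of hippocampus had 6 higher and 6 lower in Old and 5 higher and 7 lower in New, and those of hypothalamus 7 and 3 in Old and 4 and 6 in New. An unadjusted p under 0.05 was found in Old for 0 genes of these 7 lists and in New for 1 endothelial or mural marker and 1 neuron marker. No marker was listed at 0 in all 12 libraries. Sgk1 is expressed by oligodendrocytes among other cells, and the part of these cells in its values was not tested.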

How the data were processed

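Polyadenylated RNA from the brains of 12 mice was sequenced as paired ends from a TruSeq mRNA v2 library kit that does not mark strand, per the labels' protocols, although a sample description speaks of ribosomal RNA depletion. The authors deposited 1 table of FPKM values. Per the submitters' processing notes, the mm10 build was used, with the tools FastQC, Bowtie2 2.1.0, TopHat2 2.0.9, Cuffdiff 2.1.1 and Cufflinks. Not given in the sources used here are the annotation, the strand setting and the scaling between libraries. FPKM holds no counts, so depth is unknown and precision rests on 4 mice per group. No pair of columns was identical.

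Groups came from the sample titles. The 16203 genes with a mean of at least 0.5 FPKM were analysed as log2(FPKM + 0.1), which understates changes of low genes, in 1 limma 3.58.1 fit (trended empirical Bayes, R 4.3.3) of all 12 libraries. P-values were adjusted over those genes by Benjamini and Hochberg's method, with a threshold of 0.05. Single genes also had exact two-sided permutation tests (SciPy 1.17.1, Python 3.11.15). Pairs of genes were compared over the 10 libraries other than Old 1 and WT 4. For pairs among the 10 genes, no coefficient is printed where either gene has separate sets of libraries. This means that its widest gap over those 10 libraries passes 40% of the log2 range, with at least 3 libraries on each side. The limit was chosen after the values were seen, and over all 12 libraries the gap of Fkbp5 is 30.9%. Coefficients of other genes with Fkbp5 are printed to rank, count or describe genes, with no p. Positions and GC content are from GENCODE M21 on the same build (GC for 98.2% of tested genes). The procedure was tested on simulated data.

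The 10 genes and the 18 other lists were chosen with earlier results of these data known. The rule for named genes took the 10 genes, Plat, called genes of each list, the 3 smallest unadjusted p per list and the 5 genes most like Fkbp5. Not every gene it took is reported here. Alternatives changed the pseudocount (0.01, 1), filter, scaling, library weights, libraries, covariates and GC trend.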

Additional observations from a re-analysis of the deposited data

Results flagged for a closer look

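Of 30 sets of 4 values (10 genes in 3 groups), 3 held a library whose gap to its nearest neighbour, as a share of the range of its group, passed Dixon's 95% critical value, and chance alone gives about 1 in 20 such sets. New 3 was the highest New library in Fkbp5, with a gap of 0.967 of the range (12.1 FPKM, with the other New libraries at 5.37 to 5.59 FPKM). New 3 was also the highest New library in Zbtb16, with a gap of 0.835 (18.6 FPKM, with the others at 9.55 to 11.0 FPKM). WT 4 was the lowest WT library in Nr3c1, with a gap of 0.985 (11.6 FPKM, with the others at 20.9 to 21 FPKM). WT 4 is 1 of the 2 libraries that stand apart across all genes, and New 3 is not. Whether these values come from the animals or from the libraries was not tested.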

How the results depend on the processing

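None of the 10 genes passed the adjusted threshold in any comparison under any alternative run. The 30 differences printed for them, Nfkbia and Hsd11b1 gave 719 values under alternatives, of which 71 changed sign. Of these, 37 came from leaving out 1 library, and the lowest adjusted p was 0.156, for Nfkbia in New, with 0.182 for Ddit4 in New. Among the differences that never changed sign were those of Sgk1, Cdkn1a, Ddit4 and Nfkbia in both strains. The causes of the changes were not tested.

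The following differences changed sign. With a pseudocount of 1, Ddit4 in Old minus New was 0.0017. With median ratio scaling, New minus WT was -0.039 for Nr3c2, -0.008 for Fkbp5 and -0.025 for Zbtb16, and Old minus New was 0.027 for Ddit4. With quantile normalization the same 4 were -0.038, -0.011, -0.022 and 0.013. With library weights, Tsc22d3 in Old minus WT was -0.043, New minus WT was -0.029 for Nr3c1, -0.068 for Nr3c2, -0.24 for Fkbp5, -0.057 for Tsc22d3, -0.29 for Zbtb16 and -0.20 for Sult1a1, and Tsc22d3 in Old minus New was 0.014. Without WT 4 and Old 1, Tsc22d3 in Old minus WT was -0.037, and New minus WT was -0.065 for Nr3c1, -0.069 for Nr3c2, -0.088 for Fkbp5, -0.15 for Zbtb16 and -0.16 for Sult1a1. With a covariate for those libraries, New minus WT was -0.018 for Nr3c1, -0.058 for Nr3c2, -0.076 for Fkbp5, -0.11 for Zbtb16 and -0.16 for Sult1a1, and Tsc22d3 in Old minus New was 0.059. With a covariate for Ddx3y, Old minus WT was 0.062 for Nr3c1, 0.020 for Nr3c2 and 0.11 for Sult1a1. With the GC trend removed, New minus WT was -0.067 for Nr3c2 and -0.016 for Sult1a1.

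Leaving out 1 library at a time moved Old minus WT from -0.22 to 0.11 for Nr3c1, -0.095 to 0.059 for Nr3c2, -0.18 to 0.36 for Tsc22d3, -0.066 to 0.28 for Zbtb16, -0.28 to 0.17 for Sult1a1 and -0.19 to 0.046 for Pdk4. It moved New minus WT from -0.065 to 0.22 for Nr3c1, -0.069 to 0.064 for Nr3c2, -0.23 to 0.19 for Fkbp5, -0.18 to 0.19 for Zbtb16 and -0.16 to 0.21 for Sult1a1. It moved Old minus New from -0.30 to 0.048 for Sgk1, -0.048 to 0.30 for Zbtb16 and -0.16 to 0.14 for Ddit4.

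Over all genes, the count called in Old minus WT (4) was 8 with library weights, without WT 4 and Old 1 and with their covariate, and 2 with only the groups compared. In New minus WT (1) it was 2 with no filter and under those same 3 settings. In Old minus New (2) it was 4 with no filter and with the GC trend removed, 1 with a filter at 1 FPKM, 14 with weights, 6 without the 2 libraries and 7 with their covariate. For the mean of both strains (2) it was 1 with a pseudocount of 0.01, the filter at 1 FPKM or quantile normalization, 5 with weights or the covariate, and 1 to 2 with 1 library left out. Pairs of genes passing (4) were 20 over 12 libraries, 13 with group means removed, 2 with the GC trend removed and 1 to 10 with 1 library left out: 10 without WT 2, and 1 without Old 3, Old 4, New 1, New 3, WT 1 or WT 3. No paired analysis was possible because the replicate numbers of Old and New only follow accession order and pair no mice.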
